A study of Mus musculus with 16 samples.

Results

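The genes described here are 9 members of the retinoid pathway, the enzymes Adh1, Rdh10, Dhrs9, Dhrs3, Aldh1a1, Aldh1a2 and Aldh1a3 and the nuclear receptors Rara and Rxra, picked by name out of 56268 genes measured by RNA sequencing in colonic epithelial cells of mice. All 9 are among the 13255 genes that reached at least 1 FPKM (fragments scaled by the length of the gene and the size of the library) in at least 4 of 16 libraries. Aldh1a2 reached that level in 5 libraries and Aldh1a3 in 6, all from DSS-treated mice, so these 2 genes passed through the groups in which they were high, and their tests have to be read with that. For Aldh1a3, 4 of the 6 were cKO_DSS libraries, which bears on its genotype difference after DSS as well as on its DSS difference. The other 7 members reached it in all 16 libraries.

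The series asks how mTORC2, the kinase complex that contains Rictor, acts in the colonic epithelium during colitis. Control mice carried Villin-Cre, in which the villin promoter drives Cre recombinase in the intestinal epithelium, and cKO mice carried floxed Rictor alleles together with Villin-Cre, so Cre was present in both genotypes. Mice of each genotype drank plain water or 3% DSS (dextran sulfate sodium), a polymer that injures the colonic epithelium and causes colitis. Each of the 4 groups, called control, cKO, control_DSS and cKO_DSS below, has 4 libraries. The sources used here give neither the age of the mice nor the length of the DSS course. The labels also do not state that the libraries of a group came from separate mice, so the p-values cover the spread among these samples alone, which may be technical.

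Vitamin A enters cells as retinol. Retinol dehydrogenases such as Rdh10 and Dhrs9, and the alcohol dehydrogenase Adh1, can oxidise it to retinal, and Dhrs3 reduces retinal back to retinol. The retinal dehydrogenases Aldh1a1, Aldh1a2 and Aldh1a3 then convert retinal irreversibly to retinoic acid, which binds retinoic acid receptors such as Rara in a dimer with Rxra on DNA. In the gut, retinoic acid made by epithelial cells, fibroblasts and dendritic cells is known for its part in epithelial differentiation and in imprinting gut homing on lymphocytes.

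Promoter windows from 250 bases before to 50 bases after a transcription start were taken from RefSeq (GRCm38.p6, the assembly also called mm10) and matched 7 of the 9 members, in 14 windows; Aldh1a3 and Rdh10 have no entry. Each window was searched on both strands for AGGTCA, the half-site bound by retinoid receptors, for TGANTCA, the site of the AP-1 factors, and for TATAAA, the TATA box. These are the windows of Dhrs9, the member with the smallest adjusted p with DSS in both genotypes, and of Aldh1a1, which had the opposite sign there. Dhrs9 has 1 window, chr2:69380212-69380511 on the plus strand, and Aldh1a1 is shown by the first of its 2, chr19:20492333-20492632 on the plus strand. Capitals mark every match.
Dhrs9: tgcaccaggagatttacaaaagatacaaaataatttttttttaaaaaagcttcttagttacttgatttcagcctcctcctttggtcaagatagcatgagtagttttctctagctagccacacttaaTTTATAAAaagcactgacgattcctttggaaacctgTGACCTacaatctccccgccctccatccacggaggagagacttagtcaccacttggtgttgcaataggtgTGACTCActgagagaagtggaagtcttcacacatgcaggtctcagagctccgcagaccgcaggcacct
Aldh1a1: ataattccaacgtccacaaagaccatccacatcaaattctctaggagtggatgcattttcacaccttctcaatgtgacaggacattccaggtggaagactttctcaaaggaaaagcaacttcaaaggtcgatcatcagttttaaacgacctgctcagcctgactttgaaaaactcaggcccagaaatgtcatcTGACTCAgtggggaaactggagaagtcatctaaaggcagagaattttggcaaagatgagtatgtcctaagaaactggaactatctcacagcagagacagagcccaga

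The Dhrs9 window holds an AGGTCA match on the minus strand at position -88 from the start, an AP-1 match at -18 and 2 overlapping TATAAA matches, 1 on each strand. In the Aldh1a1 window the only match is an AP-1 site at -57, and the second Aldh1a1 window, inside the gene, holds none of the 3 motifs. Among the members with a window, 3 hold AGGTCA (Dhrs9, Rara and Rxra), 2 hold the AP-1 site (Aldh1a1 and Dhrs9) and 1 holds TATAAA (Dhrs9). A member can have several windows, so the shares below compare with counts of windows. Of the 14 windows, 3 hold AGGTCA, 2 the AP-1 site and 1 TATAAA. Over all 32851 windows of the table the shares were 16.3% for AGGTCA, 7.80% for TGANTCA and 13.6% for TATAAA. A match is a description of letters and says nothing of whether a factor binds there.

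Each library held between 13911823 and 16414914 recovered reads over 19969 to 22738 detected genes, and mitochondrial genes took 4.74 to 15.1% of the reads. All 11 markers of colonic epithelium passed the filter, with Muc2, the goblet cell mucin, at only 1.41 to 8.96 FPKM. Rictor ranged from 2.17 to 3.14 FPKM in control, 2.22 to 2.75 in cKO, 2.82 to 4.16 in control_DSS and 1.92 to 2.96 in cKO_DSS, and its genotype difference was not called on water (adjusted p = 0.582, limma) or after DSS (0.0761). A value for the whole gene includes exons outside the floxed part, so this is an incomplete check of the deletion. The 4 Y-linked genes measured together had 0 to 1377 reads in control, 0 to 1856 in cKO, 2681 to 3533 in control_DSS and 2924 to 4533 in cKO_DSS, and 3 of the 8 water libraries had none. The mix of sexes therefore differed between the water and the DSS libraries, and each DSS difference of a member that was called is given below with the value of a fit that holds the Y-linked level as a covariate. Every DSS library had more Y-linked reads than every water library, so this covariate largely follows DSS. The fit therefore cannot tell DSS from the mix of sexes, and a call lost in it does not assign the difference to either.

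FPKM are scaled by gene length, so levels can be set side by side between genes. Adh1 was the most abundant member in every group, with a mean of 231 FPKM in control. It was followed there by Aldh1a1 at 32.4, Rxra at 20.7, Dhrs3 at 12.1, Rdh10 at 7.35, Rara at 5.32, Dhrs9 at 5.17, Aldh1a3 at 0.411 and Aldh1a2 at 0.262 FPKM. The ranges of Aldh1a1 and Rxra, of Rdh10 and Rara, of Rara and Dhrs9, and of Aldh1a3 and Aldh1a2 overlapped in control. In cKO_DSS the order of the means was Adh1, Rxra, Dhrs9, Aldh1a1, Dhrs3, Rdh10, Rara, Aldh1a3 and Aldh1a2, with the ranges of Rxra, Dhrs9, Aldh1a1, Dhrs3 and Rdh10 overlapping from each to the next. Dhrs9 thus had rank 7 in control and rank 3 in cKO_DSS, and Aldh1a1 had ranks 2 and 4.

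**Figure D1:**
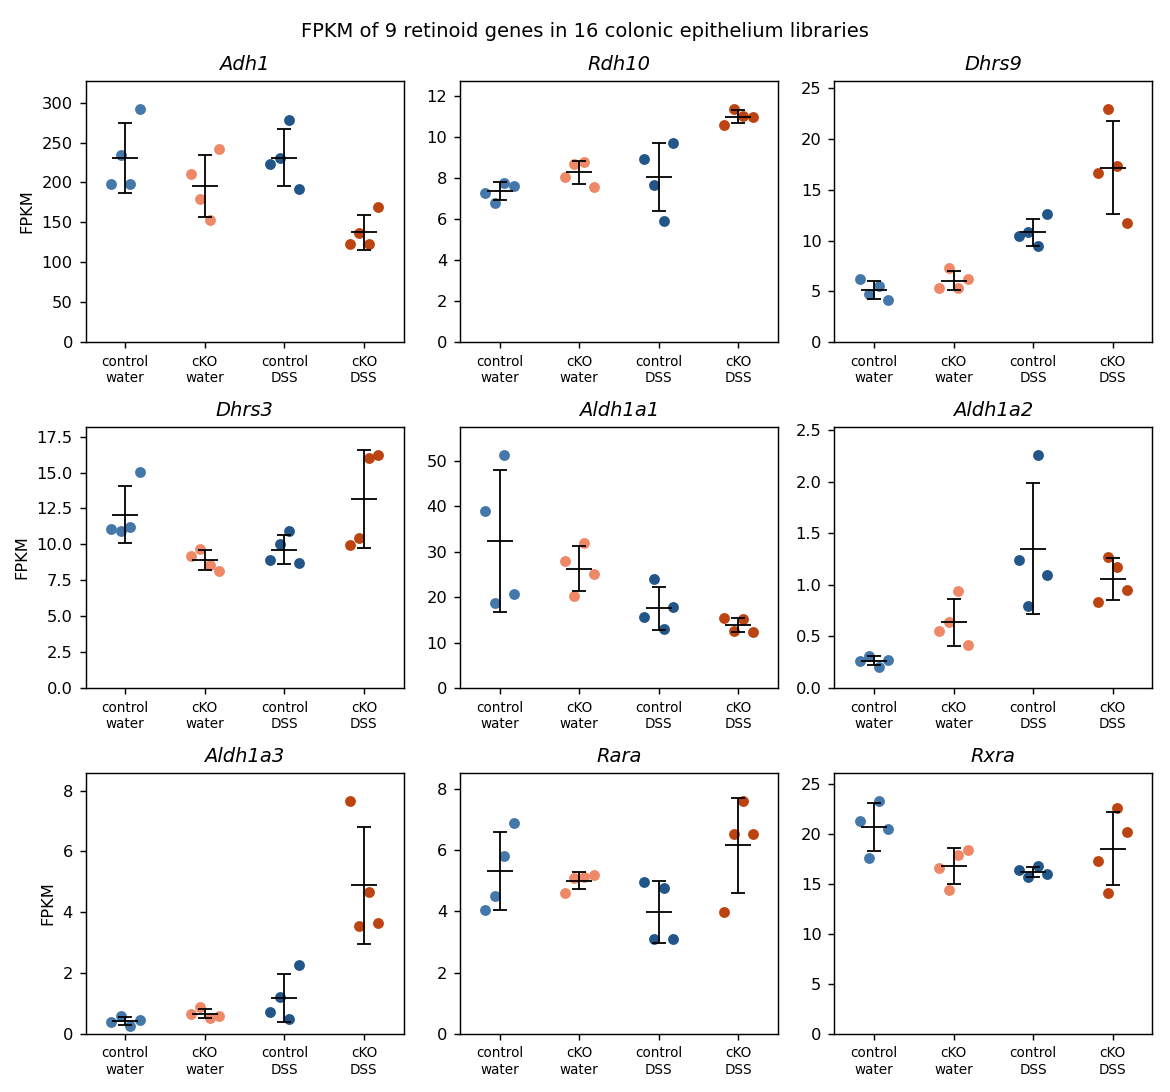
FPKM of the 9 members in each of the 16 libraries, 1 panel per gene with its own linear axis from 0; points are libraries, and black bars give the group mean and SD. Aldh1a3 lies between 3.53 and 7.67 FPKM in cKO_DSS and at or below 2.27 in all other libraries, while Adh1 is lowest in cKO_DSS.

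A model on log2(FPKM + 1) over all 16 libraries (limma) tested each gene, and a gene was called at a p under 0.05 after Benjamini-Hochberg adjustment over the 13255 genes. Differences are on that log2 scale, which understates the change of genes near or below 1 FPKM. On water, 0 of the 9 members were called between cKO and control, where 0.0905% of all tested genes were, and 3 members had an unadjusted p under 0.05 (18.1% of all genes). By limma voom on the recovered reads the count was also 0. After DSS, 3 of the 9 differed between cKO_DSS and control_DSS, with Aldh1a3 and Rdh10 higher and Adh1 lower, where 3.7% of all genes were called (2.03% higher and 1.67% lower), and 6 had an unadjusted p under 0.05 (20.2% of all genes). With DSS in control 3 members were called, 2 higher and 1 lower, against 28.5% of all genes (15% higher and 13.5% lower), and a count of that size is near the background. With DSS in cKO 5 were called, 4 higher and 1 lower, against 14.7% of all genes (8.07% higher and 6.64% lower). The interaction, which tests whether the DSS difference is the same in the genotypes, called 0 members, against 0.151% of all genes; 5 members had an unadjusted p under 0.05 (23.2% of all genes), and voom also called 0. The groups did not overlap for 1 member higher and 1 lower on water (7.85% and 7.65% of all genes), 2 higher and 1 lower after DSS (5.12% and 4.88%), 2 higher and 1 lower with DSS in control (15.5% and 12.8%), and 4 higher and 1 lower with DSS in cKO (10.1% and 8.97%). The comparisons share libraries: cKO_DSS enters both the genotype difference after DSS and the DSS difference in cKO, so their calls are not separate evidence. Aldh1a2 and Aldh1a3 are among the members counted, and both passed the filter only through DSS libraries. The members were also chosen with earlier results of these data known. The counts beside the shares are therefore descriptions, and enrichment was not tested.

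**Figure D2:**
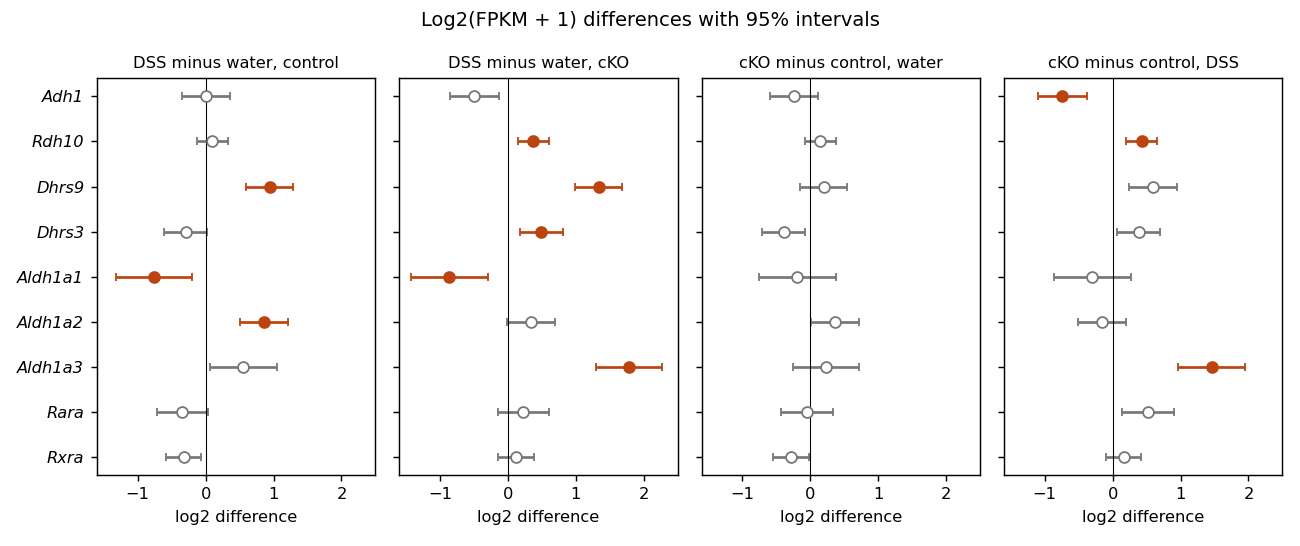
Difference of each member on the log2(FPKM + 1) scale with its 95% confidence interval from limma, 1 panel per comparison; filled points were called at an adjusted p under 0.05. The genotype difference on water has no called member, and Aldh1a3 has the largest difference of the 9 both after DSS (1.46) and with DSS in cKO (1.78).

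Adh1 (chr3:138260991-138290698, plus strand) encodes a cytosolic alcohol dehydrogenase that oxidises retinol and ethanol. Its levels were 198, 234, 198 and 292 FPKM in control, 210, 179, 153 and 242 in cKO, 223, 230, 278 and 192 in control_DSS, and 123, 137, 123 and 169 in cKO_DSS. Every cKO_DSS library lay below every control_DSS library, while the other groups overlapped each other. After DSS the level was lower in cKO_DSS than in control_DSS, at 138 ± 21.9 against 231 ± 35.7 FPKM (SD, n = 4), by 0.74 ± 0.17 (SE) on the log2 scale (adjusted p = 0.0278). In bulk samples, fewer cells of a type and less RNA per cell cannot be told apart. The call held in 20 of 28 alternative fits. Leaving out control_DSS 1, 2 or 3 or cKO_DSS 3 lost it (adjusted p from 0.0514 to 0.0890), although the difference stayed between -0.75 and -0.65. The call was also lost with no filter (adjusted p = 0.0672) and on the 8 samples compared (0.0512). The same held without both cKO_DSS 3 and 4 (0.11) and without both control 4 and control_DSS 2 (0.0678). In control the means with and without DSS were 231 and 231 FPKM, a difference of 0.01 ± 0.17 (adjusted p = 0.978), and in cKO the DSS difference was -0.50 ± 0.17 (adjusted p = 0.0602), which passed the threshold without control 4, cKO 3 or cKO_DSS 4 (adjusted p from 0.0354 to 0.0414). The interaction was -0.50 ± 0.24 (adjusted p = 0.216), so a difference between the DSS responses was not called. An antisense gene, Gm16559, overlaps Adh1 and reached at most 4.89 FPKM; the counting is not stated to use strand.

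Rdh10 (chr1:16105774-16133734, plus strand) encodes a membrane-bound retinol dehydrogenase that takes the first oxidation step. It measured 7.25, 6.79, 7.77 and 7.60 FPKM in control, 8.04, 8.70, 8.78 and 7.55 in cKO, 8.94, 7.66, 5.89 and 9.71 in control_DSS, and 10.57, 11.36, 11.02 and 10.996 in cKO_DSS. All 4 cKO_DSS libraries were above the 12 others. Rdh10 rose with DSS in cKO from 8.27 ± 0.58 to 10.99 ± 0.32 FPKM (SD, n = 4), by 0.37 ± 0.11 (adjusted p = 0.0318), and was higher in cKO_DSS than in control_DSS by 0.42 ± 0.11 (adjusted p = 0.0435). Both calls lie near the threshold. The genotype call after DSS held in 8 of 28 alternative fits, with the difference between 0.30 and 0.51 when a single library was left out. The DSS call in cKO was lost without cKO 1 or 4 or cKO_DSS 2, 3 or 4 (adjusted p from 0.0596 to 0.0921). With the Y-linked level held, the DSS difference in cKO was 0.34 (adjusted p = 0.428). In control the DSS difference was 0.10 ± 0.11 (adjusted p = 0.522).

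Dhrs9 (chr2:69380445-69404533, plus strand) encodes a dehydrogenase of the same reductase family that oxidises retinol and 3-hydroxysteroids. It stood at 6.23, 4.78, 5.50 and 4.16 FPKM in control, 5.37, 7.30, 5.32 and 6.23 in cKO, 10.4, 10.8, 9.42 and 12.6 in control_DSS, and 16.7, 22.9, 17.4 and 11.7 in cKO_DSS. In both genotypes every DSS library was above every water library. The level rose with DSS from 5.17 ± 0.90 to 10.8 ± 1.32 FPKM in control, by 0.94 ± 0.16 (adjusted p = 0.00172), and from 6.06 ± 0.93 to 17.2 ± 4.60 in cKO, by 1.34 ± 0.16 (adjusted p = 0.000213). Each of these calls held in 27 of 28 alternatives and was lost with the Y-linked level held, at 0.79 in control (adjusted p = 0.109) and 1.17 in cKO (adjusted p = 0.0543). After DSS the genotypes overlapped through cKO_DSS 4, the lowest of its group, and the difference of 0.59 ± 0.16 was not called (adjusted p = 0.0554); without cKO_DSS 4 it was 0.75 (adjusted p = 0.0266). Limma voom on the recovered reads gave 0.64 (adjusted p = 0.0348), and correcting the libraries for GC content gave 0.68 (adjusted p = 0.0138). The interaction was 0.40 ± 0.23 (adjusted p = 0.301).

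Dhrs3 (chr4:144892827-144928209, plus strand) encodes the reductase that returns retinal to retinol, and retinoic acid is known to induce it. Its values were 11.1, 10.9, 11.2 and 15.1 FPKM in control, 9.22, 9.69, 8.56 and 8.13 in cKO, 8.89, 10.04, 10.9 and 8.70 in control_DSS, and 9.98, 10.4, 16.03 and 16.2 in cKO_DSS. All cKO libraries were below all control libraries on water, and cKO_DSS fell into a lower and a higher pair. With DSS in cKO, Dhrs3 rose from 8.90 ± 0.69 to 13.2 ± 3.43 FPKM (SD, n = 4), by 0.49 ± 0.15 (adjusted p = 0.0390). That call rested on the higher pair: without both cKO_DSS 3 and 4 the difference was 0.18 (adjusted p = 0.364). It was also lost without cKO_DSS 3 alone, cKO_DSS 4 alone or any 1 of the 4 cKO libraries (adjusted p from 0.0539 to 0.113), and with the Y-linked level held (0.46, adjusted p = 0.452). On water the genotype difference was -0.39 ± 0.15 (adjusted p = 0.206), and after DSS it was 0.39 ± 0.15 (adjusted p = 0.156). The interaction was 0.78 ± 0.21 (adjusted p = 0.0907); it passed the threshold without cKO_DSS 1 (0.89, adjusted p = 0.0355) or without cKO_DSS 2 (0.87, adjusted p = 0.0273), which are the lower pair.

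Aldh1a1 (chr19:20492715-20643465, plus strand) was the main retinal dehydrogenase transcript in all 16 libraries. Its values were 38.9, 18.7, 51.3 and 20.6 FPKM in control, 27.9, 20.2, 31.9 and 25.04 in cKO, 15.6, 24.0, 12.9 and 17.8 in control_DSS, and 15.3, 12.5, 15.1 and 12.4 in cKO_DSS. The control libraries spread widely, and 2 of them lay below the highest control_DSS library, whereas cKO and cKO_DSS did not overlap. Aldh1a1 fell with DSS by 0.76 ± 0.27 in control, from 32.4 ± 15.6 to 17.6 ± 4.71 FPKM (adjusted p = 0.0444), and by 0.87 ± 0.27 in cKO, from 26.3 ± 4.95 to 13.8 ± 1.61 (adjusted p = 0.0403). These calls held in 15 and 17 of 28 alternatives. With the Y-linked level held the differences were -0.11 (adjusted p = 0.866) and -0.12 (adjusted p = 0.939). In control the call was lost without control 1 or 3, cKO 1 or 4, control_DSS 1, 3 or 4, or cKO_DSS 3 or 4, and without control 3 the difference was -0.50 (adjusted p = 0.138). In cKO it was lost without cKO 1, 3 or 4, control_DSS 1 or any 1 cKO_DSS library, with differences from -0.92 to -0.77. Genotype differences were -0.19 ± 0.27 on water and -0.30 ± 0.27 after DSS, neither called.

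Aldh1a7, a near-identical copy of Aldh1a1, had means of 8.76 ± 3.11, 7.93 ± 1.09, 6.38 ± 1.28 and 4.90 ± 0.539 FPKM (SD, n = 4) in control, cKO, control_DSS and cKO_DSS. Reads may be split between the copies, so the level of either is uncertain. The DSS difference of Aldh1a7 was -0.37 ± 0.17 in control (adjusted p = 0.118) and -0.59 ± 0.17 in cKO (adjusted p = 0.0325), and was not refitted with the Y-linked level.

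Aldh1a2 (chr9:71215789-71296243, plus strand) encodes the retinal dehydrogenase best known from mesenchyme and dendritic cells. It was low throughout, at 0.266, 0.310, 0.207 and 0.266 FPKM in control, 0.549, 0.637, 0.942 and 0.413 in cKO, 1.24, 0.799, 2.26 and 1.09 in control_DSS, and 0.834, 1.27, 1.18 and 0.948 in cKO_DSS. These values rest on 7 to 12 reads per library in control, 13 to 29 in cKO, 26 to 74 in control_DSS and 28 to 45 in cKO_DSS. Control libraries were below all 12 others. Aldh1a2 rose with DSS in control, from 0.262 ± 0.043 to 1.35 ± 0.635 FPKM (SD, n = 4), by 0.86 ± 0.17 (adjusted p = 0.00323), in 25 of 26 alternatives. The fit on the 8 samples compared is not among these, since 0 control and 3 control_DSS libraries reached 1 FPKM, too few for the filter. With the Y-linked level held the difference was 0.84 (adjusted p = 0.107). In cKO the DSS difference was 0.34 ± 0.17 (adjusted p = 0.197), and the interaction was -0.52 ± 0.24 (adjusted p = 0.200). On water the genotype difference was 0.36 ± 0.17 (adjusted p = 0.265).

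Markers of other cell types that can make Aldh1a2 moved in the same comparisons. The summed level of 8 fibroblast and matrix genes, led by Dcn, Vim and Sparc, was 4.85 to 7.29 FPKM in control, 6.52 to 7.99 in cKO, 14.3 to 17.4 in control_DSS and 11.1 to 13.1 in cKO_DSS. Of the 5 that passed the filter, 5 rose with DSS in control and 4 in cKO, where 15% and 8.07% of all genes were called higher. Among the 5, Col1a1 and Col3a1 stayed at or below 0.745 and 0.557 FPKM in every water library. Both therefore passed the filter only through DSS libraries, as Aldh1a2 did, and the count is partly set by the filter. The fibroblast marker Pdgfra did not exceed 0.0431 FPKM in any library. The summed level of 9 macrophage and dendritic cell genes was 4.06 to 6.03, 4.62 to 7.22, 6.80 to 9.94 and 7.04 to 10.99 FPKM in the same order. Of the 3 that passed the filter, Lyz2 and C1qb rose with DSS in both genotypes, and Cd68 fell in control, by 0.50 ± 0.17 (adjusted p = 0.0404), while Flt3 and Xcr1, which mark dendritic cells, reached at most 0.112 and 0.146 FPKM. C1qb, at most 0.463 FPKM on water, also passed the filter only through DSS libraries. The part of these cells in the Aldh1a2 values was not tested, and the markers were not refitted with the Y-linked level.

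Aldh1a3 (chr7:66390890-66427517, minus strand) encodes the other retinal dehydrogenase of the family. It measured 0.377, 0.571, 0.246 and 0.450 FPKM in control, 0.638, 0.866, 0.525 and 0.576 in cKO, 0.702, 1.22, 0.480 and 2.27 in control_DSS, and 7.67, 3.53, 4.66 and 3.65 in cKO_DSS. The cKO_DSS libraries carried 255 to 525 reads of it, against 32 to 152 in control_DSS, 33 to 61 in cKO and 17 to 45 in control. All 4 were above the 12 others, and cKO_DSS 1 was the highest. Aldh1a3 was higher in cKO_DSS than in control_DSS, at 4.88 ± 1.93 against 1.17 ± 0.796 FPKM (SD, n = 4), a 4.18-fold ratio of the means and a difference of 1.46 ± 0.23 (adjusted p = 0.00552), which was called in all 27 alternatives. On the 8 samples compared the adjusted p of this difference was 0.0499, the highest of the alternatives and at the threshold. Aldh1a3 entered the test through its cKO_DSS values, as said above; with no filter on the genes tested, the adjusted p of this difference was 0.0167. With DSS in cKO it rose 7.49-fold from 0.651 ± 0.150 FPKM, by 1.78 ± 0.23 (adjusted p = 0.000284), which was called in 26 of 27 alternatives and not with the Y-linked level held (1.52, adjusted p = 0.0713). In control the DSS difference of 0.56 ± 0.23 was not called (adjusted p = 0.0805), but it passed the threshold without control_DSS 3 (0.72, adjusted p = 0.0306), without cKO_DSS 1 (0.56, adjusted p = 0.0496), with a pseudocount of 0.1 (1.14, adjusted p = 0.0369) and under quantile normalization (0.64, adjusted p = 0.0484), and was 0.33 with the Y-linked level held (adjusted p = 0.584). The interaction was 1.23 ± 0.33 (unadjusted p = 0.0018, adjusted p = 0.0860), and it was called only without cKO_DSS 2 (1.34, adjusted p = 0.0327). A larger DSS response of Aldh1a3 in cKO was therefore not called.

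The sum of the 3 retinal dehydrogenase transcripts shows how their make-up shifted. The sum was 19.6 to 51.8 FPKM in control, 21.7 to 33.4 in cKO, 15.7 to 26.0 in control_DSS and 17.0 to 23.8 in cKO_DSS. Aldh1a3 made up 0.476 to 2.91% of it in control (median 1.53%), 1.57 to 3.99% in cKO (2.21%), 3.07 to 10.7% in control_DSS (4.36%) and 20.4 to 32.2% in cKO_DSS (21.9%). The Aldh1a1 share was 95.5 to 99.1%, 93.1 to 96.2%, 82.5 to 92.2% and 64.3 to 72.9% in the same order. The cKO_DSS libraries had the lowest Aldh1a1 shares and the highest Aldh1a3 shares of the 16, and Aldh1a1 was still the larger in each. These shares are built from the values above and carry no test of their own.

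**Figure D3:**
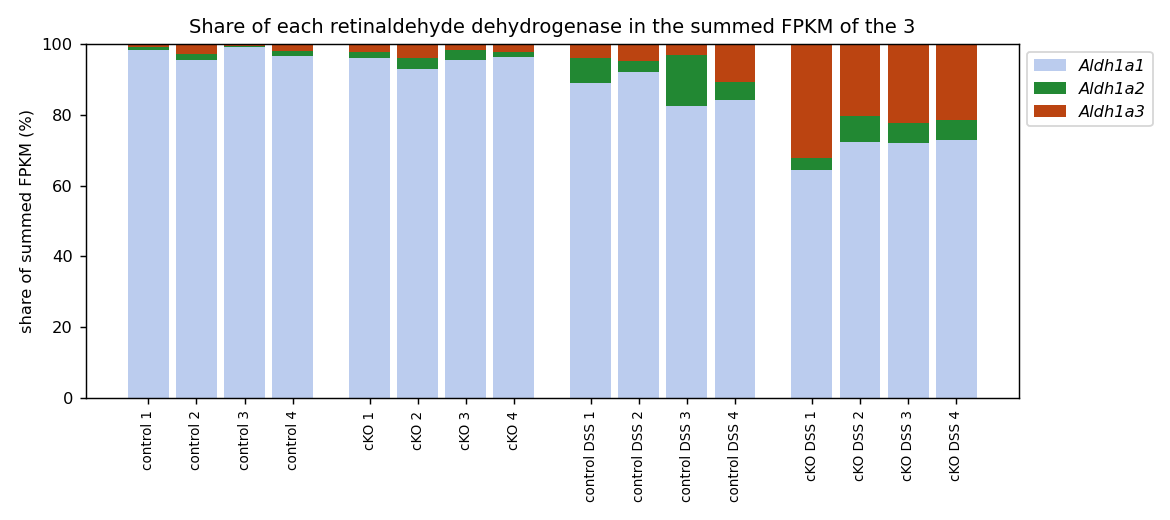
Percent of the summed FPKM of Aldh1a1, Aldh1a2 and Aldh1a3 contributed by each, as 1 stacked bar per library from 0 to 100%, with libraries ordered by group. The Aldh1a3 share is 20.4 to 32.2% in cKO_DSS and at most 10.7% in the other groups.

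Rara (chr11:98927818-98974942, plus strand) encodes retinoic acid receptor alpha. It measured 4.06, 4.51, 5.82 and 6.89 FPKM in control, 4.62, 5.10, 5.14 and 5.19 in cKO, 4.97, 3.11, 4.75 and 3.11 in control_DSS, and 3.97, 6.54, 7.63 and 6.55 in cKO_DSS. The groups overlapped in every comparison, and none was called. After DSS the genotype difference was 0.52 ± 0.18 (adjusted p = 0.115). It was called in 1 of 28 alternatives, without cKO_DSS 1, the lowest of its group (0.68, adjusted p = 0.0238). With the GC correction it was 0.34 (adjusted p = 0.202). The same correction moved the DSS difference in control from -0.34 ± 0.18 (adjusted p = 0.159) to -0.01 (adjusted p = 0.972). On water the genotype difference went from -0.05 ± 0.18 (adjusted p = 0.899) to 0.15 (adjusted p = 0.698), a change of sign.

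Rxra (chr2:27676440-27762957, plus strand) encodes the partner receptor, retinoid X receptor alpha. It measured 21.3, 17.6, 23.3 and 20.5 FPKM in control, 16.6, 14.4, 17.8 and 18.4 in cKO, 16.4, 15.6, 16.8 and 16.01 in control_DSS, and 17.3, 14.1, 22.5 and 20.2 in cKO_DSS. All control_DSS libraries lay below all control libraries, at 16.2 ± 0.50 against 20.7 ± 2.38 FPKM (SD, n = 4), but the difference of -0.32 ± 0.12 was not called (adjusted p = 0.0598). It passed the threshold in 9 of 28 alternatives, among them those without control 2 (-0.40, adjusted p = 0.0381), cKO_DSS 2 or cKO_DSS 3. With the Y-linked level held it was -0.0042 (adjusted p = 0.989), and with the GC correction -0.07 (adjusted p = 0.644). The interaction was 0.44 ± 0.17 (adjusted p = 0.158) and was called without cKO_DSS 2 (0.56, adjusted p = 0.0359). With the GC correction the interaction was 0.15 (adjusted p = 0.652). Genotype differences were -0.28 ± 0.12 on water (adjusted p = 0.252) and 0.16 ± 0.12 after DSS (adjusted p = 0.492).

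Across the 9 members, the median difference was -0.05 between genotypes on water, 0.39 between genotypes after DSS, 0.01 with DSS in control and 0.34 with DSS in cKO. Over all kept genes the medians were 0.01, -0.01, -0.01 and -0.01. Markers of crypt and cycling cells also moved with DSS: 3 of 8 fell in control and 7 of 8 in cKO, and their summed level was 94.3 to 112, 124 to 138, 89.3 to 106 and 74.9 to 98.0 FPKM in control, cKO, control_DSS and cKO_DSS. Of 8 surface colonocyte markers, 2 fell with DSS in control, and in cKO 1 rose and 1 fell. Over all genes, 13.5% were called lower with DSS in control, and in cKO 6.64% were called lower and 8.07% higher. The marker lists were not refitted with the Y-linked level. In the genotype comparison after DSS, 2 surface markers (Clca4a and Muc3a) and 1 of 11 epithelial markers were higher in cKO_DSS, and Smoc2 of the crypt list and Sparc of the fibroblast list were lower. Over all genes, 2.03% were called higher there and 1.67% lower. Clca4a was also called higher in cKO on water, by 0.96 ± 0.16 (adjusted p = 0.0287), and its interaction was 0.43 ± 0.22 (adjusted p = 0.245). The median genotype difference after DSS was 0.34 over the epithelial markers and 0.295 over the surface markers, beside 0.39 over the members. The part of cell make-up in the members' values was not tested.

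A further 44 genes of the pathway were listed by role, and 22 of them passed the filter. In either genotype comparison and in the interaction 0 of the 22 were called, with 5, 8 and 7 at an unadjusted p under 0.05 on water, after DSS and for the interaction, where the shares over all genes were 18.1, 20.2 and 23.2%. With DSS, 2 were called in control, 1 higher and 1 lower, and 7 in cKO, 2 higher and 5 lower, beside 28.5% and 14.7% of all genes. These genes were not refitted with the Y-linked level. The median difference over the 22 was -0.08 with DSS in control and -0.05 in cKO.

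Among 8 kept genes of retinol transport, retinyl ester and carotenoid metabolism, Rbp4, the carrier of retinol in blood, rose with DSS in both genotypes, by 0.48 ± 0.17 in control (adjusted p = 0.0446) and by 1.15 ± 0.17 in cKO (adjusted p = 0.000561). In cKO its mean went from 5.38 ± 1.48 to 12.9 ± 0.99 FPKM (SD, n = 4). Ttr, which carries Rbp4, fell with DSS in cKO from 13.96 ± 3.06 to 6.82 ± 1.85 FPKM, by 0.95 ± 0.22 (adjusted p = 0.00969). Lrat, which stores retinol as esters, fell there from 1.90 ± 0.26 to 1.10 ± 0.13 FPKM, by 0.46 ± 0.12 (adjusted p = 0.0227). Stra6l, a receptor for Rbp4, fell by 0.31 ± 0.10 in cKO (adjusted p = 0.0427), and Scarb1, a carotenoid transporter, fell by 0.34 ± 0.12 in control (adjusted p = 0.0400).

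Of 7 other kept retinol and retinal oxidoreductases, Rdh11 fell with DSS in cKO by 0.42 ± 0.13 (adjusted p = 0.0395) and Dhrs4 by 0.34 ± 0.10 (adjusted p = 0.0281). Among 4 other kept receptors and corepressors, Rarg, the retinoic acid receptor gamma, rose with DSS in cKO from 2.14 ± 0.49 to 3.71 ± 1.33 FPKM, by 0.56 ± 0.17 (adjusted p = 0.0427). None of the 3 kept retinoid binding proteins was called; Rbp2, which binds retinol in enterocytes, had means of 10.6, 5.33, 5.62 and 3.44 FPKM in control, cKO, control_DSS and cKO_DSS. The Cyp26 enzymes, which clear retinoic acid, did not pass the filter, and their summed level was at most 0.153 FPKM in any library. Of 12 genes listed as targets of retinoic acid, 4 passed the filter, and only Lrat among these 4 was called, with DSS in cKO.

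**Figure D4:**
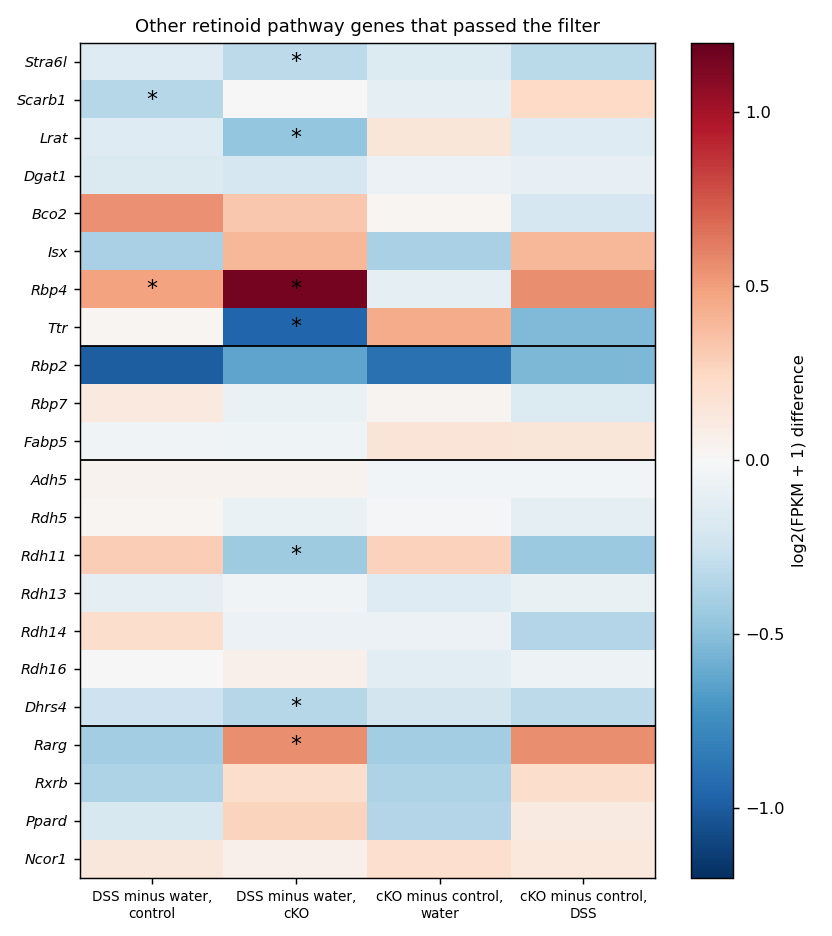
Differences on the log2(FPKM + 1) scale of 22 other kept pathway genes, in rows by role, for the genotype comparisons and the DSS comparisons in columns; colour gives the difference and an asterisk shows a call at an adjusted p under 0.05. No gene is marked in the genotype columns, and Rbp4 is marked in both DSS columns.

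Likeness of pattern over the 16 libraries was measured as Pearson's r of log2(FPKM + 1); the libraries share their group differences and sequencing, so the values are descriptions. Aldh1a3 was most like Zfand2a (0.929), Il1rn (0.926) and Sytl4 (0.921). For Dhrs9 the closest were Atp2a2 (0.966), Casp8 (0.959) and C2 (0.958), and for Rdh10 they were Il1rn (0.852), Lrp12 (0.844) and Ppic (0.839). Among the members, Aldh1a3 had r = 0.85 with Dhrs9 and 0.83 with Rdh10, and Adh1 had -0.83 with Rdh10 and -0.77 with Aldh1a3. Aldh1a1 was most like Sgk2 (0.918), Aldh1a7 (0.891) and Cipc (0.883), and Adh1 was most like Fads2 (0.825), Pdzk1ip1 (0.821) and Steap3 (0.814). Dhrs3 followed Gas2l1 (0.957), Cldn3 (0.955) and Misp (0.935), and Aldh1a2 followed Fbxo42 (0.884), Efemp1 (0.874) and Uhrf2 (0.872). The receptors were closest to Cdk9 (0.920), Rela (0.914) and Osbpl10 (0.905) for Rara, and to Gpatch3 (0.901), Marchf9 (0.892) and Galk1 (0.873) for Rxra.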

How the data were processed

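Total RNA of colonic epithelial cells was sequenced in 16 libraries, 4 in each of 4 groups; the labels give the groups. Reads were filtered for adapters, ambiguous bases and quality, per the labels' protocols. The submitters' processing notes name the tools featureCounts 1.5.0-p3 and DESeq2 1.20.0, and mm10 as the build. For the aligner, the annotation release and the use of strand, the answer is "not given in the sources used here". The deposited values are FPKM. Multiplied by gene length, 100.0% of the values above 0 came out as whole reads within 0.05, which gave the reads and depth quoted.

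The 13255 genes reaching 1 FPKM in 4 or more libraries were fitted as log2(FPKM + 1) with limma 3.58.1 in R 4.3.3, with a mean per group, a trended eBayes and two-sided moderated tests, Benjamini-Hochberg adjusted within each of 5 comparisons. The test was checked on simulated data. Alternatives were quantile normalization, a median shift, a filter at 5 FPKM or none, a pseudocount of 0.1, voom on recovered reads, a GC correction (loess span 0.5, GC known for 97.1% of kept genes), a replicate block, a Y-linked covariate, fits on 8 samples, and leaving out libraries. The members and gene lists were chosen with earlier results of these data known. All 9 members are named, with each called gene of the pathway lists, at most 6 per list, and the 3 protein-coding genes most like each member; Rbp2, Aldh1a7 and Gm16559 are named in addition, and were chosen after their values were seen. An item of the pathway lists is not reported here.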

Additional observations from a re-analysis of the deposited data

Results flagged for a closer look

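Each group of 4 libraries was checked for a library far from the rest, in 36 groups of the 9 members, and 2 stood apart; chance sets apart about 1 group in 20. Dhrs3 was highest in control 4, at 15.1 FPKM, while the other control libraries lay between 10.9 and 11.2. Without control 4 the genotype difference of Dhrs3 on water was -0.29 (adjusted p = 0.439) and its DSS difference in control was -0.19 (adjusted p = 0.386). Rara was lowest in cKO 1, at 4.62 FPKM, while the other cKO libraries lay between 5.10 and 5.19. Without cKO 1 the genotype difference of Rara on water was -0.02 (adjusted p = 0.970).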

How the results depend on the processing

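The number of the 9 members called after DSS between genotypes was 3, and it was 1 with no filter, on the 8 samples compared, without both cKO_DSS 3 and 4, and without both control 4 and control_DSS 2; leaving out 1 library gave 1 to 4, with 1 without control_DSS 1, 2 or 3 or cKO_DSS 3. With DSS in control it was 3, with 5 under quantile normalization, 0 with the Y-linked covariate, and 2 to 4 leaving out 1 library. With DSS in cKO it was 5, with 2 with no filter, 0 with the Y-linked covariate, 2 without both cKO_DSS 3 and 4, and 2 to 6 leaving out 1 library, with 2 without cKO 1, cKO 4 or cKO_DSS 3 and 3 without cKO_DSS 2 or 4. The interaction called 0 members, 1 without cKO_DSS 1 and 3 without cKO_DSS 2, so leaving out 1 library gave 0 to 3. On water the count was 0 in every alternative run. The cause of these changes was not tested, except that fewer samples were fitted where libraries were left out. Over all genes, calls with DSS numbered 3778 in control and 1950 in cKO, and 193 and 94 with the Y-linked covariate; with the fits on 8 samples or without pairs of libraries, calls after DSS between genotypes numbered 126, 33 and 117 against 491. Leaving out 1 library gave 2 to 111 calls over all genes on water (12 with all libraries), 78 to 886 after DSS, 2240 to 4258 with DSS in control, 1305 to 2153 in cKO and 0 to 1240 for the interaction (20 with all libraries); with no filter the calls after DSS numbered 209.

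Same-numbered libraries did not deviate together: 24 correlations between groups ran from -0.199 to 0.300, and 6 exceeded 0.1, so the numbers are not taken to pair the samples. With a replicate block, 0 members were called on water, 2 after DSS, 4 with DSS in control, 4 with DSS in cKO and 0 for the interaction. Over all 13255 genes the block gave 2, 429, 3857, 1898 and 13 calls in that order. No direction of a called member reversed in the alternatives. Aldh1a2 and Aldh1a3 could not be fitted with the filter at 5 FPKM. On the 8 samples compared, Aldh1a2 could be fitted only for the genotype difference after DSS. Aldh1a3 could be fitted there only for that difference and for DSS in cKO. Spearman rho between log2 difference and GC content was taken over the kept genes, which are not independent of each other. It was -0.523 on water, 0.375 after DSS, -0.530 for DSS in control, 0.055 for DSS in cKO and 0.586 for the interaction. With the GC correction the member counts were 0, 4, 3, 6 and 0 in that order. Over the 12867 genes tested with it, the calls were 12, 556, 2539, 2510 and 9. Without it they were 12, 491, 3778, 1950 and 20 of 13255. The numbers of genes called with DSS were thus near equal in the genotypes with the GC correction. At this depth Aldh1a2 rests on at most 74 reads per library, which limits its precision.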
